A study of Mus musculus with 3 samples.

Results

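The regions described here are the ATAC-seq peaks around 7 genes of the formative and primed epiblast, Pou5f1, Utf1, Fgf5, Dnmt3a, Dnmt3b, Lin28a and Lin28b. ATAC-seq reads out open chromatin by letting a transposase cut and tag exposed DNA. All peaks that touched the gene body or the 50 kb on either side of it were taken, which gave 132 peaks of 129843 in the SOX2-ON list, 114 of 131520 in the SOX2-OFF list and 144 of 130348 in the CEpiLC list. Peaks of the 3 lists that shared at least 1 base were joined, and the 7 windows then held 176 of the 219488 regions of the series.

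The cells were HM1 mouse embryonic stem (ES) cells of strain 129, differentiated for 72 h in basal medium with 10 ng/ml bFGF and 5 µM LGK974, an inhibitor of WNT secretion, to which CHIR99021, an activator of WNT signalling, was added after 2 days. CEpiLC was the wild-type sample, named for caudal epiblast-like cells, and it had no further treatment. SOX2-ON and SOX2-OFF came from Sox2 TetON cells, 1 engineered line of genotype Sox2-/- with a doxycycline-inducible Sox2 transgene in the Hprt locus. Doxycycline at 1 µg/ml stayed in the medium in SOX2-ON and was removed for the differentiation in SOX2-OFF. All lines expressed the rtTA activator from Rosa26, and according to the methods the wild-type line was the parent of the engineered one. ES cells were kept on fibroblast feeders that were removed by plating before the differentiation. There was 1 sample of 50000 cells in each group, so no spread between replicates was available and no test was run.

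In the epiblast, pluripotent cells leave the naive state of the ES cell, pass through a formative state and become primed for the germ layers. Pou5f1 encodes OCT4, the POU factor that binds DNA together with SOX2, and Utf1 encodes a chromatin-associated protein and is a classical target of that pair. Fgf5 encodes a secreted FGF and is a hallmark of the epiblast after implantation. Dnmt3a and Dnmt3b encode the methyltransferases that lay down new DNA methylation as the epiblast is primed, and Lin28a and Lin28b encode RNA-binding proteins that block the maturation of let-7 microRNAs.

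Values of a peak were compared through its rank within its own list, with rank 1 the highest −log10 p, because the lists differed in strength. The peak ranked 20000 had a −log10 p of 26.4, 21.2 and 10.6 in the SOX2-ON, SOX2-OFF and CEpiLC lists. These strongest 20000 peaks are called strong. Median peak widths were 621 bp, 741 bp and 526 bp in the same order. Promoter peaks did not separate cell types, since each list held one at all 6 caudal epiblast markers, all 6 naive markers, all 4 endoderm markers, both neural markers and 5 of 6 fibroblast markers. Strong promoter peaks were found at 2, 3 and 4 caudal epiblast markers and at 3, 4 and 5 fibroblast markers in SOX2-ON, SOX2-OFF and CEpiLC. They were found at 6, 6 and 5 naive markers in the same order, and at all 4 endoderm and both neural markers in each list. The part of carried-over feeder cells in the values below was not tested. Peak density, as a ratio to the median autosome, was 2.71 to 3.19 on chromosomes 6 and 8 in the engineered line and 3.94 on chromosome 11 in the wild type, and none of the 7 genes lies on these chromosomes.

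Regions open in all 3 samples were the largest class around the 7 genes. A peak was present in all 3 lists in 82 of the 176 regions, or 46.6% (95% Wilson interval 39.4 to 54%, counting error only), against 27% of all regions and 33.5% of the regions within 50 kb of coding genes outside chromosomes 6, 8 and 11. With a −log10 q of at least 5 required of every peak, the share was 49.3% against 41% of all regions, a smaller gap. It was 45.8% around the 12 other formative and primed genes described at the end and 43.4% around the 5 partners in DNA methylation, so a share of this size was not particular to the 7 genes, and it was 32.8% around the 10 naive pluripotency genes and 31.4% around the 5 genes of the LIN28 and let-7 pathway. Of these comparison genes, Nanog and Tet3 lie on chromosome 6, Klf2 and Zfp42 on chromosome 8 and Igf2bp1 on chromosome 11. Their regions were kept, and the part of the peak density of these chromosomes in the shares was not tested. Among the 7 genes, the share ran from 38.9% around Lin28b (7 of 18 regions) to 50% around Pou5f1 (12 of 24) and Dnmt3b (18 of 36). Regions of 1 window share their surroundings, so the interval is narrower than the true uncertainty. The remaining classes are set against the same regions near coding genes. Regions found only in CEpiLC numbered 31 (17.6%, near coding genes 19.6%), those only in SOX2-ON 17 (9.66%, near coding genes 15.3%) and those only in SOX2-OFF 9 (5.11%, near coding genes 13.1%). A further 14 were shared by SOX2-ON and CEpiLC alone (7.95%, near coding genes 3.92%), 13 by SOX2-ON and SOX2-OFF (7.39%, near coding genes 6.08%) and 10 by SOX2-OFF and CEpiLC (5.68%, near coding genes 8.49%). Of the 14, 7 lay around Dnmt3a. The low share of SOX2-OFF alone depended on the threshold, since with a −log10 q of at least 5 it was 19.2% against 14.3% of all regions.

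**Figure D1:**
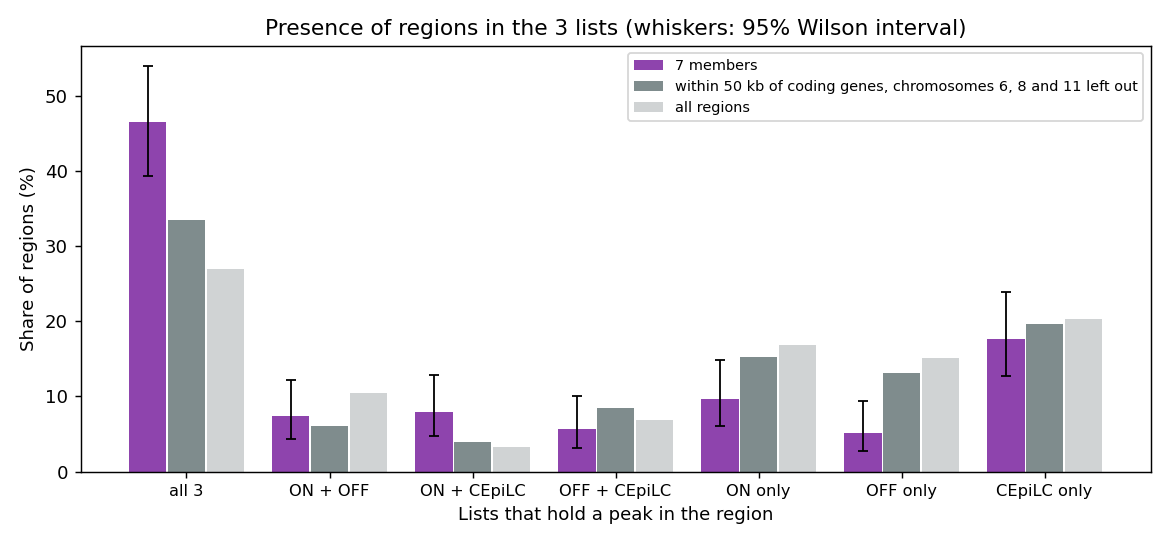
Share of regions (y axis, %) by the lists that hold a peak in them (x axis), for the 176 regions around the 7 genes, for regions within 50 kb of coding genes with chromosomes 6, 8 and 11 left out, and for all 219488 regions; whiskers are 95% Wilson intervals. The 46.6% in all 3 lists stands above both comparison bars, and the shares of SOX2-ON alone and SOX2-OFF alone stand below them at the threshold plotted, which for SOX2-OFF turns round at a −log10 q of at least 5 (19.2% against 14.3% of all regions).

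Strong peaks were rarely absent from another list. The windows held 29 strong SOX2-ON peaks, 28 of SOX2-OFF and 26 of CEpiLC, and a single one, a SOX2-ON peak downstream of Lin28a, had no overlap in another list, CEpiLC. Over the series 8.46% of the strong SOX2-ON peaks were missing from CEpiLC and 5.01% from SOX2-OFF. Strong SOX2-OFF peaks were missing from SOX2-ON in 1.26% of cases and from CEpiLC in 1.04%, and strong CEpiLC peaks from SOX2-ON in 1.4% and from SOX2-OFF in 0.61%, and in the windows none was missing in these directions. Joined over the lists, the strong peaks of the windows formed 36 regions, of which 9 lay at a start of the member gene, 11 at a promoter of another coding gene, 7 between coding genes, 6 in introns and 3 over other exons.

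All 7 genes had a promoter peak, within 1 kb of an annotated start, in every list. It was strong in 6 of 7 genes in SOX2-ON and in 7 of 7 in SOX2-OFF and CEpiLC. Of 21911 coding genes, 74.9%, 75.8% and 76.3% had a promoter peak in SOX2-ON, SOX2-OFF and CEpiLC, and 60%, 62.4% and 61.7% a strong one. At the first start of the gene, the SOX2-ON rank was the best of the 3 in 6 of the 7 genes, with Fgf5 as the exception. SOX2-ON had the best rank at 36.9% of all 13905 promoter regions with a strong peak. None of these promoter differences reached 2-fold in rank between any pair of lists.

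**Figure D2:**
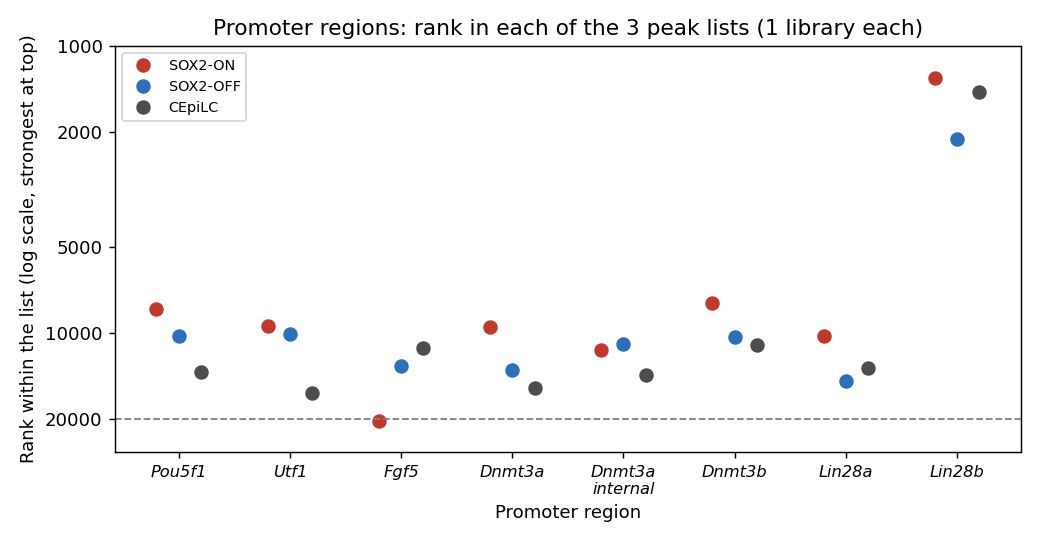
Rank of the strongest peak of each promoter region within its list (y axis, log scale, strongest at the top) for the 7 genes and the internal Dnmt3a start (x axis), with 1 point for each library; the dashed line marks rank 20000. Lin28b stands apart at ranks of 1297 to 2115, and Fgf5 is the gene whose SOX2-ON point lies lowest.

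Rank changes were asked of the regions that all 3 lists shared, 59284 in the series and 82 in the windows, by ranking them anew among themselves and calling a ratio of at least 2-fold. In the windows 6 regions ranked higher in SOX2-ON than in SOX2-OFF (7.32%), against 3.68% of all shared regions, and 7 ranked higher in SOX2-ON than in CEpiLC (8.54%), against 7.06%. In the opposite directions 2 regions ranked higher in SOX2-OFF than in SOX2-ON (2.44%, background 2.64%) and none higher in CEpiLC than in SOX2-ON (background 5.49%). Between SOX2-OFF and CEpiLC, 2 ranked higher in SOX2-OFF (background 2.97%) and none higher in CEpiLC (background 2.82%). The share for SOX2-ON over SOX2-OFF was the farthest above its background, and it rests on 6 regions. Among these are the promoter of Hmgn2 in the Lin28a window and a region 15.6 kb upstream of Pou5f1. The latter was strong in no list, with rank 32503 in SOX2-ON and 109452 in SOX2-OFF (ratio 2.16 among shared regions). The share depended on the call. With a gap of 20 percentile points in rank as the call, 12 regions ranked higher in SOX2-ON (14.6%, background 8.48%) and 12 higher in SOX2-OFF (14.6%, background 7.81%). In the pairs with CEpiLC, that call turned the order round. Between SOX2-ON and CEpiLC, 8 ranked higher in SOX2-ON (9.76%, background 11.4%) and 13 higher in CEpiLC (15.9%, background 11.4%). Between SOX2-OFF and CEpiLC, 5 ranked higher in SOX2-OFF (6.1%, background 7.94%) and 8 higher in CEpiLC (9.76%, background 7.81%). With a −log10 q of at least 5, 1 of 36 shared regions ranked 2-fold higher in SOX2-ON than in SOX2-OFF (2.78%, background 2.39%). The called regions near Fgf5, upstream of Dnmt3b and inside Lin28a kept peaks in SOX2-ON and SOX2-OFF at that threshold. They left the shared set for want of a CEpiLC peak, so this count does not bear on their difference between SOX2-ON and SOX2-OFF. Over the 82 regions the median log2 ratio of the SOX2-OFF rank to the SOX2-ON rank was 0.00, against −0.01 over all shared regions, and that of the CEpiLC rank to the SOX2-ON rank was 0.02 against −0.02, so the regions did not shift as a group. The 3 lists enter all of these pairs, so the directions are not independent of each other.

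**Figure D3:**
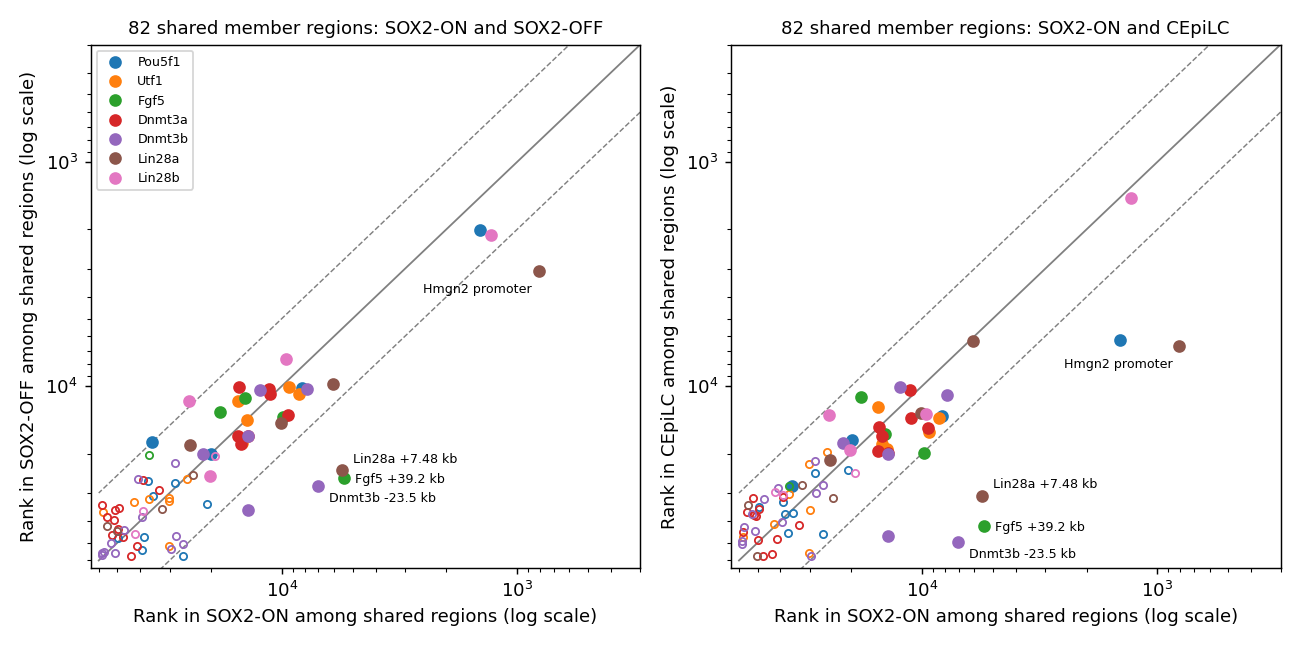
Rank in SOX2-ON (x axis) against rank in SOX2-OFF (left, y axis) or CEpiLC (right, y axis) among the 59284 shared regions, both on log scales with the strongest at the top right, for the 82 shared regions around the 7 genes; filled points hold a strong peak, the full line marks equal rank and the dashed lines a 2-fold difference. The regions near Fgf5, Dnmt3b and Lin28a named in the plot lie below the lower dashed line in both panels, and no point lies above the upper line in the right panel.

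Pou5f1 lies on the plus strand at chr17:35506018-35510772 in mm10, the build of all positions here. Its promoter region, chr17:35503677-35506256, spanned 2580 bp and reached upstream from the first start. Its rank was 8255 in SOX2-ON against 10220 in SOX2-OFF and 13680 in CEpiLC, and 2580 bp, 2401 bp and 2543 bp of it were covered. The region was therefore nearly as long in CEpiLC as in SOX2-ON, and its rank in CEpiLC over that in SOX2-ON was 1.66. Since OCT4 and SOX2 act as partners, the regions were searched on both strands for the SOX letters CCATTGT and the OCT letters ATGCAAAT. The Pou5f1 region held 1 SOX match and no OCT match. The 200 bases around that match are shown to place it, in lower case with the match in capitals, on the plus strand of mm10 (chr17:35505075-35505274, upstream of the start, outside any annotated exon).

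Pou5f1 upstream: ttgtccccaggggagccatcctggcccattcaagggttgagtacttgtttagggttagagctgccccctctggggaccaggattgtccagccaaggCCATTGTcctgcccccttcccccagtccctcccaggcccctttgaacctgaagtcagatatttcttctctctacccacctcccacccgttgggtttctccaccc

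The strongest region of the Pou5f1 window in every list was not at Pou5f1. It lay 10.8 kb downstream of the start, over the promoters of Tcf19 and Cchcr1, at chr17:35515994-35517644. It ranked 1446 in SOX2-ON against 2022 in SOX2-OFF and 6228 in CEpiLC, and among shared regions its CEpiLC rank was 4.3 times the SOX2-ON rank and 3.08 times the SOX2-OFF rank. With ranks by fold enrichment, the ratio of peak pileup to local background, the first of these ratios fell to 1.92. The promoter of Psors1c2, 27.8 kb downstream, had the opposite order for the engineered line, with rank 48120 in SOX2-ON against 17986 in SOX2-OFF and 29866 in CEpiLC. Its SOX2-OFF rank was 0.496 times that in SOX2-ON, and 0.603 times with ranks by fold enrichment, which is short of 2-fold.

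At Utf1, a short gene at chr7:139943789-139945112, 1 region covered the gene and both flanks (chr7:139943642-139946067). It ranked 9432 in SOX2-ON against 10070 in SOX2-OFF and 16216 in CEpiLC. Peaks covered 2426 bp of it in SOX2-ON against 2224 bp in SOX2-OFF and 1624 bp in CEpiLC, so the covered length was the smallest in CEpiLC, where it came from 2 peaks, of 1272 bp and 352 bp. The region held the only match among the 36 strong regions to the OCT-SOX composite, a 15-letter motif in which a SOX site adjoins an OCT site, here allowing 2 mismatches. The match, CATTGTTATGCTAGT on the minus strand at chr7:139945681-139945695, lies past the annotated end of Utf1. Of the 23686 shared regions with a strong peak, 0.684% held a composite match anywhere in the region. It is shown with its flanks on the plus strand (chr7:139945589-139945788), the composite in capitals.

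Utf1 downstream flank: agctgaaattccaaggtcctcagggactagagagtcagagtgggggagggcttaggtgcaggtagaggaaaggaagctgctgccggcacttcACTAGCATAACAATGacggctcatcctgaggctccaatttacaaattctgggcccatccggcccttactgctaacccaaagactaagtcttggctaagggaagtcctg

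A further region 6.7 kb downstream of the Utf1 start ranked 8514, 10832 and 13977 in SOX2-ON, SOX2-OFF and CEpiLC. It lay between coding genes and overlapped the non-coding gene Gm16201. It was the strongest region of the window in SOX2-ON. Both Utf1 regions thus kept the order SOX2-ON, SOX2-OFF, CEpiLC with ratios under 2-fold. The promoter of Kndc1, 49 kb upstream, did not. It was the strongest region of the window in CEpiLC and ranked 16338, 11721 and 12537, lowest in SOX2-ON.

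Fgf5, at chr5:98254184-98277030, was the one gene of the 7 whose promoter ranked lowest in SOX2-ON and highest in CEpiLC. The region over the start (chr5:98253412-98254934) ranked 20193 in SOX2-ON, just outside the strong peaks, 13071 in SOX2-OFF and 11288 in CEpiLC. Its covered length was 1374 bp, 1407 bp and 1496 bp. An intronic region centred 1.99 kb past the start ranked 15149, 11298 and 16524 and so was strong in each list.

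A region between genes 39.2 kb downstream of the Fgf5 start (chr5:98292739-98293985) ran the other way. It was the strongest region of the window in SOX2-ON at rank 5453, and ranked 27074 in SOX2-OFF and 53886 in CEpiLC. Among shared regions the SOX2-OFF rank was 4.71 times and the CEpiLC rank 7.74 times the SOX2-ON rank. Peaks of similar length lay there in each list, 1195 bp, 1177 bp and 1086 bp. Under the alternative rankings the ratios were 4.4 to 5.64 for SOX2-OFF and 7.71 to 10.1 for CEpiLC. The highest −log10 q in the region was 163 in SOX2-ON against 11.5 in SOX2-OFF and 2.47 in CEpiLC, and with a −log10 q of at least 5 required, the region was absent from CEpiLC. Here and below, that threshold weighs most on the weaker CEpiLC list. Regions only in CEpiLC were 20.3% of all regions without it and 2.02% with it, so such an absence adds little to the ranks.

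The 280 bases of this region with the most motif matches are shown because they hold a cluster of them (chr5:98293376-98293655, plus strand). Capitals mark 3 matches to the GATA letters AGATAA and 2 to the OTX letters TAATCC, on either strand. The whole region held no SOX or OCT match. Within the central 600 bp, GATA letters occur in 15.6% and OTX letters in 12.7% of all shared regions with a strong peak.

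Fgf5 downstream: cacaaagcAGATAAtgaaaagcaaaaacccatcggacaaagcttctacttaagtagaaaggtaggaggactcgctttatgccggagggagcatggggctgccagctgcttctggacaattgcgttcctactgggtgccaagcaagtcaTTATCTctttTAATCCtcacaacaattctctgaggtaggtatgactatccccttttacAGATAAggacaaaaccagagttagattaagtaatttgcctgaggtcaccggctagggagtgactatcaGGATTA

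Farther downstream, 56.1 kb from the Fgf5 start, a region between genes ranked 10007 in SOX2-ON against 13823 in SOX2-OFF and 20434 in CEpiLC, with a CEpiLC rank 2.02 times that in SOX2-ON. A region 30.3 kb downstream, without a strong peak in any list, ranked 50086, 20910 and 29709. The Fgf5 window therefore combined a promoter with its best rank in CEpiLC and strong regions at 39.2 kb and 56.1 kb with their best rank in SOX2-ON. The region 30.3 kb downstream had its best rank in SOX2-OFF. Both strong regions lie closer to the start of Cfap299 than to that of Fgf5, at 35319 bp and 18109 bp. The lists do not tell which gene they act on.

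Dnmt3a spans chr12:3806007-3914443. Its first promoter (chr12:3805991-3808942) ranked 9541 in SOX2-ON against 13477 in SOX2-OFF and 15599 in CEpiLC, with covered lengths of 2652 bp, 2949 bp and 2912 bp. A second promoter lies inside the gene, at the starts of the transcripts Dnmt3a-203 and Dnmt3a-205, and is known for a short isoform that is abundant in ES cells. That region (chr12:3889763-3892869, 85.3 kb past the first start) ranked 11448, 10914 and 13993, so the lists differed less there, with rank ratios of 0.974 and 1.24 against SOX2-ON. Its covered length was 2694 bp in SOX2-ON against 1609 bp in SOX2-OFF and 1525 bp in CEpiLC. The region was thus the longest in SOX2-ON without a higher rank than in SOX2-OFF. Of the 7 strong regions in the Dnmt3a window that all lists shared, none changed rank by 2-fold. An intergenic region 13.2 kb upstream was the strongest of the window in SOX2-OFF, with ranks of 16199, 10130 and 15393. A region toward the downstream end of the window was its strongest in CEpiLC, with ranks of 11586, 10276 and 10487, lowest in SOX2-ON.

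Dnmt3b spans chr2:153649450-153687730. Its promoter (chr2:153648859-153651984) ranked 7844 in SOX2-ON against 10302 in SOX2-OFF and 10994 in CEpiLC, with covered lengths of 2048 bp, 3042 bp and 2232 bp. The order of the ranks was that of Pou5f1, with ratios of 1.32 and 1.4 to SOX2-ON.

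A pair of regions upstream of Dnmt3b, both inside the neighbouring gene Commd7, differed more. The first, in an intron 23.5 kb upstream of the Dnmt3b start (chr2:153625533-153626426), was the strongest region of the window in SOX2-ON at rank 7043 and ranked 29833 in SOX2-OFF and 75814 in CEpiLC. Its rank ratios to SOX2-ON were 3.98 and 7.04, and stayed at 3.05 to 4.17 and 5.53 to 7.3 under the alternative rankings. The second, 26.7 kb upstream and overlapping exons of Commd7 (chr2:153622212-153623200), ranked 14692, 40471 and 66977. Its ratios were 2.55 for SOX2-OFF and 3.35 for CEpiLC, and with ranks by fold enrichment the SOX2-OFF ratio was 1.71, under 2-fold. In SOX2-ON the peaks covered 894 bp and 989 bp. In CEpiLC they covered 520 bp and 333 bp and had a highest −log10 q of 1.87 and 2.07, so that both were absent there at a −log10 q of at least 5. Each of the pair lies closer to the start of Commd7 than to that of Dnmt3b, at 6305 bp and 9531 bp, and the lists do not tell which gene a region acts on. The Commd7 promoter itself ranked 12785, 10386 and 10122, with a higher rank in SOX2-OFF and CEpiLC than in SOX2-ON.

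Each of these regions held 1 match to the SOX letters, which occur in the central 600 bp of 5.66% of all shared regions with a strong peak and of 5 of the 35 such regions around the 7 genes (14.3%). The 280 bases of the intronic region with the most motif matches are shown on the plus strand (chr2:153625776-153626055). Capitals mark 1 SOX match on the minus strand at the left end and 2 GATA matches.

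Dnmt3b upstream, intronic: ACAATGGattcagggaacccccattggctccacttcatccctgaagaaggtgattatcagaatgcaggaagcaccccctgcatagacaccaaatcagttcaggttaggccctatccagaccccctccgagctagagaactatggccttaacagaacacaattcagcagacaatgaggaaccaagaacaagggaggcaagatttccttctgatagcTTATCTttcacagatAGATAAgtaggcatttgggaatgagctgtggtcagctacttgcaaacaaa

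Lin28a lies on the minus strand at chr4:134003330-134018841. Its promoter (chr4:134016868-134020219) ranked 10240 in SOX2-ON against 14673 in SOX2-OFF and 13229 in CEpiLC, over 3013 bp, 3256 bp and 3330 bp. Inside the gene, 7.48 kb past the first start, a region ranked 5565 in SOX2-ON against 24741 in SOX2-OFF and 33769 in CEpiLC (chr4:134010168-134012561). Its ratios to SOX2-ON were 4.27 and 5.55. They were 3.57 to 4.52 and 4.52 to 6.25 under the alternative rankings, and the region was absent from CEpiLC at a −log10 q of at least 5. The region is mostly intronic and takes in the first exon of the transcript Lin28a-202, so by that transcript it also counts as a promoter. A stretch of 280 bases near the centre of the region and clear of that exon is shown (chr4:134011225-134011504, plus strand), with a GATA match and a match to the CDX/HOX letters TTTATGG in capitals. Other stretches of that length held as many matches. The SOX match of this region and a match to the TCF/LEF letters ATCAAAG lie close together near its edge, outside the bases shown.

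Lin28a intronic: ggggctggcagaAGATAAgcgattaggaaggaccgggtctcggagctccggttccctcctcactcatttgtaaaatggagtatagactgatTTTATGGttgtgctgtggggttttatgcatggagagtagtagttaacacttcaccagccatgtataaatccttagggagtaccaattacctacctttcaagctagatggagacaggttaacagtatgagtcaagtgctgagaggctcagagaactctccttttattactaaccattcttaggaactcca

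The strongest region of the Lin28a window in SOX2-ON and SOX2-OFF was the promoter of Hmgn2, which encodes a nucleosome-binding protein, 50.9 kb downstream. It ranked 808, 3076 and 6651 in SOX2-ON, SOX2-OFF and CEpiLC, with ratios to SOX2-ON of 3.82 and 8.23. With ranks by fold enrichment these ratios fell to 2.29 and 3.1. The promoter of Dhdds, between Hmgn2 and Lin28a, ranked 6079, 9799 and 6337, so that not every promoter of the window had the order of Hmgn2. The one strong peak absent from another list lay 62.2 kb downstream of the Lin28a start at chr4:133956437-133956773. It ranked 8737 in SOX2-ON and 24455 in SOX2-OFF. It was the shortest of the 36 strong regions at 337 bp, and annotated repeats made up 74.8% of it, against a median of 9.89% over all shared regions with a strong peak. The part of the repeat in this absence was not tested.

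Lin28b had the strongest promoter of the 7 genes, with rank 1297 in SOX2-ON against 2115 in SOX2-OFF and 1449 in CEpiLC (chr10:45485417-45487085). The gene spans chr10:45376620-45486395 on the minus strand. Its CEpiLC rank was 1.11 times and its SOX2-OFF rank 1.63 times the SOX2-ON rank. An intronic region 13.1 kb past the first start (chr10:45472603-45473996) lies upstream of the internal start of the transcript Lin28b-201, which is 16194 bp past the first. The region ranked lowest in SOX2-ON, where the regions near Dnmt3b and inside Lin28a ranked highest. It ranked 30084 in SOX2-ON against 11683 in SOX2-OFF and 13518 in CEpiLC, with ratios to SOX2-ON of 0.468 and 0.539. With a −log10 q of at least 5 required, the SOX2-OFF ratio was 0.554, short of 2-fold. Peaks covered 865 bp in SOX2-ON, 1184 bp of it in SOX2-OFF and 1380 bp in CEpiLC. Another intronic region, 39.8 kb past the start, held a SOX match and ranked 22976, 26544 and 19666, without a 2-fold change.

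**Figure D4:**
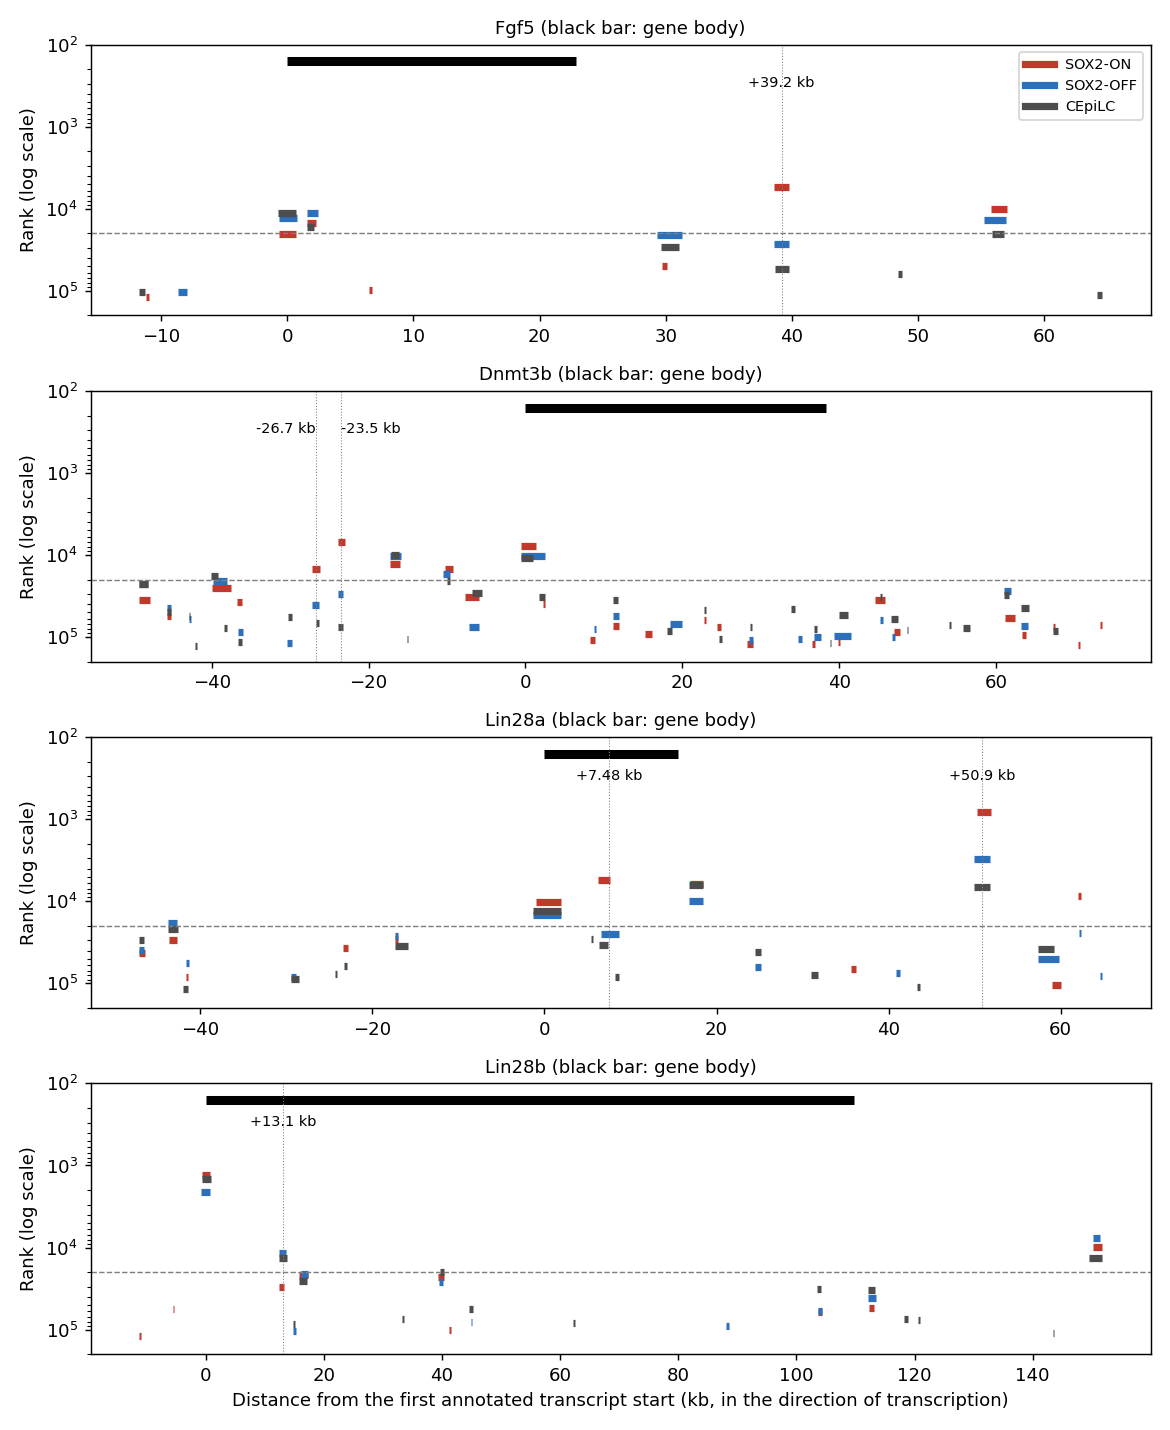
Peaks around Fgf5, Dnmt3b, Lin28a and Lin28b by distance from the first start in the direction of transcription (x axis, kb) and rank within the list (y axis, log scale, strongest at the top); each bar spans 1 peak of 1 library, the black bar is the gene and the dashed line rank 20000. The SOX2-ON bars stand above the others at 39.2 kb from Fgf5, 23.5 kb and 26.7 kb from Dnmt3b and 7.48 kb from Lin28a, and below them 13.1 kb from Lin28b.

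Motif letters over the whole set are given as a description. Among the 35 shared regions of the windows with a strong peak in at least 1 list, the central 600 bp held GATA letters in 11 (31.4%, all 15.6%), OTX letters in 5 (14.3%, all 12.7%), CDX/HOX letters in 3 (8.57%, all 3.87%), the ZIC letters CAGCAGG in 5 (14.3%, all 23.9%), the KLF letters GGGTGTGG in 2 (5.71%, all 6.44%) and the TCF/LEF letters ATCAAAG in 1 (2.86%, all 6.9%). OCT letters were in 0 of 35 (all 3.2%), the T-box letters TCACACCT in 0 of 35 (all 2.05%) and the composite in 0 of 35 (all 0.274%). Whole regions differ in length, and the shares over them were not matched for length. Over whole regions the order turned round for T-box (17.1%, all 6.74%), KLF (25.7%, all 16.9%) and ZIC letters (54.3%, all 48.3%). It also did for the composite, on 1 region (2.86%, all 0.684%). OCT (0%, all 7.89%) and TCF/LEF letters (11.4%, all 19%) stayed below. GATA (51.4%, all 41.1%), SOX (22.9%, all 15.7%), OTX (48.6%, all 35.2%) and CDX/HOX letters (14.3%, all 13%) stayed above. A match to letters in the reference genome is not evidence of binding, and the reference is of strain C57BL/6J while the cells were 129.

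Shares of regions that differed in width lay near or below the background. After division by the median ratio over all shared regions, the covered length was at least 1.5-fold larger in SOX2-ON than in SOX2-OFF in 10 of the 82 regions (12.2%, background 11.8%) and larger in SOX2-ON than in CEpiLC in 17 (20.7%, background 22.1%). It was larger in SOX2-OFF than in SOX2-ON in 11 (13.4%, background 21%) and than in CEpiLC in 16 (19.5%, background 24.4%). It was larger in CEpiLC than in SOX2-ON in 13 (15.9%, background 16.7%) and than in SOX2-OFF in 8 (9.76%, background 11.5%). A wide rank gap came with a length gap at some regions and not at others. The strongest SOX2-ON region downstream of Fgf5 covered 1195 bp in SOX2-ON and 1086 bp in CEpiLC. The region upstream of Dnmt3b that overlaps exons of Commd7 covered 989 bp in SOX2-ON and 333 bp in CEpiLC.

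Genes of related function are given over their shared regions, for the same 2-fold call and the same backgrounds of 3.68% (SOX2-ON over SOX2-OFF), 7.06% (SOX2-ON over CEpiLC) and 5.49% (CEpiLC over SOX2-ON). Around 12 other formative and primed genes, among them Otx2, Pou3f1 and Zic2, 3 of 93 shared regions ranked higher in SOX2-ON than in SOX2-OFF (3.23%), 9 higher in SOX2-ON than in CEpiLC (9.68%) and 2 higher in CEpiLC than in SOX2-ON (2.15%). Around 10 naive pluripotency genes, among them Klf4, Nanog and Esrrb, the counts were 7, 7 and 1 of 77 (9.09%, 9.09% and 1.3%), close to the shares around the 7 genes. Around 5 partners in DNA methylation, Dnmt1, which copies methylation, Uhrf1, which recruits it, and the demethylases Tet1, Tet2 and Tet3, they were 0, 5 and 2 of 62 (0%, 8.06% and 3.23%). Around 5 genes of the LIN28 and let-7 pathway, the uridylyltransferases Tut4 and Tut7, the nuclease Dis3l2 and the let-7 targets Hmga2 and Igf2bp1, they were 2, 3 and 1 of 44 (4.55%, 6.82% and 2.27%). All of these genes had a promoter peak in every list. Nanog, Klf2, Zfp42, Tet3 and Igf2bp1 lie on the chromosomes of high peak density, which none of the 7 genes does, and their regions are included in these counts.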

How the data were processed

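Peaks were taken from 3 deposited lists, 1 for each of SOX2-ON, SOX2-OFF and CEpiLC. The authors trimmed, aligned (BWA, mm10) and filtered reads in the nf-core/atacseq pipeline and called broad peaks with MACS2 in each sample. The version of MACS2 and read totals are not given in the sources used here, so the depth behind each list is unknown. The deposited fold enrichment of a peak is a ratio to its local background, the deposited −log10 p and −log10 q come from the caller, and the deposited score repeats the latter. The highest q in the lists was 0.1. No control library is described, and broad calling makes peak edges approximate. Values grow with depth and enrichment, so strength was compared by ranks within a list. The −log10 q values of single regions are printed to show which pass a threshold. A fixed threshold weighs most on the weakest list, CEpiLC.

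Gene models were from GENCODE M21 and sequences from the GRCm38.p6 RefSeq genome, the build of mm10. Peaks were merged and ranked with pandas 2.3.3 and numpy 2.4.6 in Python 3.11.15, Wilson intervals came from scipy 1.17.1 and bases were read after indexing with samtools 1.23.1. The functions were tested on simulated lists. Named regions were the promoters, strong peaks missing from another list, and for each gene the strongest region of each list and the strong region with the largest rank ratio. Promoter regions at internal starts without a strong peak are not described. Other regions in the text were chosen after their values were seen. The genes, lists and motifs were chosen with earlier results of these data known. Alternatives changed the q threshold, the window, the joining and overlap of peaks, the ranking, the fold and the promoter distance. One sequence is not reported here.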

Additional observations from a re-analysis of the deposited data

How the results depend on the processing

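No paired analysis was possible because with 1 sample per group nothing could be paired, and no replicate could be left out. Of the 104 recomputed summary values, 74 stayed within the limits set for them, and the others follow. At a −log10 q of at least 2, regions only in CEpiLC made up 9.84% (all regions 11.9%). At 5 they made up 1.37% (all 2.02%) and regions only in SOX2-OFF 19.2% (all 14.3%). With the strongest 50000 peaks, missing SOX2-ON peaks numbered 3 of 61 from SOX2-OFF (series 15.8%) and 5 from CEpiLC (23.7%), SOX2-OFF peaks 1 of 64 from SOX2-ON (9.3%) and 3 from CEpiLC (10.9%), and CEpiLC peaks 3 of 67 from SOX2-ON (15.5%) and 3 from SOX2-OFF (9.46%). If at least 50% of a peak had to be covered, 6 of 29 SOX2-ON peaks were missing from CEpiLC (20.7%, series 14.2%) and 1 from SOX2-OFF (series 8%), 1 of 28 SOX2-OFF peaks from SOX2-ON (4.62%) and 1 from CEpiLC (5.29%), and 1 of 26 CEpiLC peaks from SOX2-ON (4.05%) and 1 from SOX2-OFF (1.47%). Ranked by fold enrichment, 1 region ranked higher in CEpiLC than in SOX2-ON and 1 higher in CEpiLC than in SOX2-OFF. With a gap of 20 percentile points as the call, 12 regions ranked higher in SOX2-ON than in SOX2-OFF (background 8.48%). The reverse held for 12 (7.81%). Between SOX2-ON and CEpiLC, 8 ranked higher in SOX2-ON (11.4%, within the limit) and 13 higher in CEpiLC (11.4%). Between SOX2-OFF and CEpiLC, 5 ranked higher in SOX2-OFF (7.94%) and 8 higher in CEpiLC (7.81%). SOX2-ON and SOX2-OFF thus had equal counts, and the order at the 2-fold call turned round in both pairs with CEpiLC. At a −log10 q of at least 5 only 36 shared regions were left, and the counts were 1 (SOX2-ON over SOX2-OFF, background 2.39%), 2 (SOX2-ON over CEpiLC, 7.69%) and 0 (SOX2-OFF over SOX2-ON, 2.56%). The called regions near Fgf5, upstream of Dnmt3b and inside Lin28a left this set because their CEpiLC peaks fell below the threshold. A restriction to shared regions with a strong peak in at least 1 list, chosen after the data were seen, selects on the compared value, and its counts are not used. At 2-fold, width calls were 3 and 9 for SOX2-ON over SOX2-OFF and CEpiLC, 7 and 10 for SOX2-OFF over SOX2-ON and CEpiLC, and 5 for CEpiLC over SOX2-OFF. Of 54 recomputed rank ratios of single regions, none changed direction. With no read totals and 1 library per group, a peak that is absent from a list was not detected there, and library and condition cannot be told apart.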
